A study of Mus musculus with 15 samples.

Results

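The genes described here carry out glycolysis or are classical targets of the hypoxia response, and they were read in ileal organoids after 24 h with bile acids. They are 31 symbols taken as a list, which covers glucose and lactate transport, the glycolytic enzymes, the enzymes that set the fate of pyruvate, the oxygen sensing machinery and other genes that low oxygen induces. All 31 were among the 23420 symbols of the count files, and 30 of them passed the filter on low counts that left 13159 genes for testing. The exception was Eno1 (enolase 1), described with the lower glycolysis enzymes.

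Each library was bulk RNA of primary organoids at passage 2, which are hollow epithelial structures that ileal crypts of C57BL/6 mice form in Matrigel. The 5 groups had 3 libraries each, called a, b and c. M90 and M10 received a bile acid mix modelled on the mouse, with 90% and 10% of its bile acids 12α-hydroxylated, that is, with a hydroxyl group on carbon 12 of the sterol ring. H90 and H10 received a mix modelled on human bile, with the same shares of 90% and 10%, and the vehicle group received no bile acid. Every group shared the DMEM base with 0.2% albumin. The composition and the dose of the mixes are not given in the sources used here, so any difference between groups is one between whole mixtures. Nothing in the labels ties the 3 libraries of a group to different mice or wells, so p-values measure the spread between these libraries, which may be technical.

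Glycolysis splits glucose into pyruvate, which lactate dehydrogenase turns into lactate or pyruvate dehydrogenase passes on to the mitochondria. When oxygen is scarce the prolyl hydroxylases can no longer mark the subunit HIF-1α for destruction, and the stabilised factor binds DNA at a short core (ACGTG or GCGTG) and raises the transcription of glucose transporters, glycolytic enzymes, Vegfa and its own hydroxylases. In the small intestine the epithelium lives on a steep oxygen gradient and takes up much of its fuel from the lumen and the blood.

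The promoters printed next belong to Adm, Car12 and Vegfa, which had the largest changes, to Ankrd37 and the glucose transporter Slc2a1, which rose in every pool, and to Ldha, whose window holds the most cores of those shown while its level changed little. Each is the RefSeq window of 300 bases on GRCm38.p6, from 250 bases before to 50 bases after the transcription start, read 5′ to 3′ on the gene's strand. Capitals mark every ACGTG or GCGTG found on either strand.
Adm, chr7:110627407-110627706, plus strand: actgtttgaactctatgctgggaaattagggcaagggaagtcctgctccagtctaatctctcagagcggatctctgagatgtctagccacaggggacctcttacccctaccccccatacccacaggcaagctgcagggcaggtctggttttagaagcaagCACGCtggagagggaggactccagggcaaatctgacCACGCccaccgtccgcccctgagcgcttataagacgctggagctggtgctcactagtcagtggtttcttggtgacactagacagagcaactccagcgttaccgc
Car12, chr9:66713436-66713735, plus strand: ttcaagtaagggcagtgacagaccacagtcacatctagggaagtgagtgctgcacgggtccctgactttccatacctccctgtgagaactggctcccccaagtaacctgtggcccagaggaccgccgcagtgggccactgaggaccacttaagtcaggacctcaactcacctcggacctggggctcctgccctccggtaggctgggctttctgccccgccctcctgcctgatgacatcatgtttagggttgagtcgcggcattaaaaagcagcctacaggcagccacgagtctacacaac
Vegfa, chr17:46032328-46032627, minus strand: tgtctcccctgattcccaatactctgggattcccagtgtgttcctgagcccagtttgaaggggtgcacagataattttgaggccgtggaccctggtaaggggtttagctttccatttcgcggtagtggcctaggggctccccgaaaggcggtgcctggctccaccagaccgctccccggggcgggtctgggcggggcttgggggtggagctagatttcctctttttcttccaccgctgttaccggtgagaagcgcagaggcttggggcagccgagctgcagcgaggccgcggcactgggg
Ankrd37, chr8:45999801-46000100, minus strand: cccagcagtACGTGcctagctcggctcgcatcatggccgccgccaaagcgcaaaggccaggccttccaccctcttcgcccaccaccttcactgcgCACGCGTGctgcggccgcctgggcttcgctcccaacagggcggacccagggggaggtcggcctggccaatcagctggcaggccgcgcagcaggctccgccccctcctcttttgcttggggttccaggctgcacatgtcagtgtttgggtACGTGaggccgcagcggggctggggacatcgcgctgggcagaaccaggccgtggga
Slc2a1, chr4:119108495-119108794, plus strand: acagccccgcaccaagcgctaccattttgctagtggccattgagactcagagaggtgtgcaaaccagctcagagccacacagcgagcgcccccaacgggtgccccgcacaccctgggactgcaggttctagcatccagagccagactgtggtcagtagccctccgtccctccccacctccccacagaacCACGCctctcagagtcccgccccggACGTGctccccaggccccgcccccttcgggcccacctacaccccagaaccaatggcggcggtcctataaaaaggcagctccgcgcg
Ldha, chr7:46845554-46845853, plus strand: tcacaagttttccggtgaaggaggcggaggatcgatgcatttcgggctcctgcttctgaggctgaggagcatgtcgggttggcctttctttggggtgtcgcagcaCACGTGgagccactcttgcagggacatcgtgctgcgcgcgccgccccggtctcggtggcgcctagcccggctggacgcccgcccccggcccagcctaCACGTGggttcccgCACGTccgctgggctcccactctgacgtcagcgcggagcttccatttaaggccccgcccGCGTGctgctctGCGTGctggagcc
The Ldha window held 5 ACGTG and 2 GCGTG, the Ankrd37 window 2 of each, the Slc2a1 window 1 of each and the Adm window 2 GCGTG. The Car12 and Vegfa windows held neither, though a second annotated Vegfa start had 1 of each in its window. RefSeq windows were matched for 30 of the 31 members, all but Ndrg1, and counting a gene once for any of its windows, ACGTG was in 21 of 30 (70.0%) against 21.8% of all 27025 genes with a window. GCGTG was in 18 members (60.0%) against 35.2% of all genes, and either core in 27 members (90.0%) against 46.7%. The palindrome CACGTG, which holds ACGTG on both strands and is counted in it, was in 4 members (13.3%) against 8.09% of all genes. Promoters rich in CpG hold these letters more often, and windows rather than genes are the fair unit there. ACGTG was in 54.5% of the members' 44 windows against 29.0% of all windows with at least 20 CpG, GCGTG in 47.7% against 63.5%, and either core in 75% against 73.6%. The members' 44 windows were not held to that CpG minimum, and the lowest of them, one of Aldoa and one of Kdm3a, had 0 CpG. These shares therefore compare unlike sets of windows, and no enrichment or lack of it is read from them. Of all windows of 300 bases, whatever their CpG, ACGTG was in 19.6%, GCGTG in 32.4% and either core in 43.8%. A core is a match of letters and not a site, and a window without one says nothing about the factor.

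Total counts ran from 11245807 (H90 c) to 28989526 (M10 a) per library. The libraries also fall into sets that the groups do not explain: Mup20, a liver transcript, was at 23.0 to 35.9 CPM (a gene's reads scaled by the library total) in 7 libraries (H90 a, H10 and vehicle) and at 0.356 to 0.583 CPM in the other 8 (M90, M10, H90 b and c), while the collagen gene Col1a1 was at 0 to 0.107 CPM and 3.74 to 8.63 CPM in the same sets. M90 and M10 share no set with vehicle, so for them the set and the bile acids cannot be told apart except through the H90 libraries. The organoids carried their tissue's markers: 13 enterocyte markers summed to 27890 to 29518 CPM in M90, 39509 to 40855 CPM in M10, 17548 to 18521 CPM in H90 and 24804 to 25390 CPM in H10, against 14829 to 17358 CPM in vehicle. The 16 proliferation markers, which include Mki67 and Top2a, went the other way, at 342 to 369 CPM in M90, 150.1 to 160.4 CPM in M10, 1108 to 1261 CPM in H90 and 351 to 372 CPM in H10, against 1676 to 1790 CPM in vehicle, and all 16 fell in every pool. Goblet and Paneth cell markers summed to 3802 to 4221 CPM in M90, 7575 to 8562 CPM in M10, 2151 to 2306 CPM in H90 and 4103 to 4299 CPM in H10, against 1321 to 1360 CPM in vehicle, and 7 stem cell markers to 81.7 to 85.2, 94.4 to 104, 201 to 233 and 82.7 to 96.7 CPM in the same pools, against 397 to 434 CPM in vehicle. The sums hide markers that went the other way. Of the 13 enterocyte markers 11, 13, 9 and 12 were called higher in M90, M10, H90 and H10, and 2 lower in H90. Of the 11 goblet and Paneth cell markers 10 were called higher in each pool, and 1 lower in M90 and in H90. Of the 7 stem cell markers 5 fell in M90 and 6 in each other pool. Fibroblast markers stayed at or below 24.6 CPM and endothelial and immune markers at or below 3.87 CPM in every library. These marker levels differed between the pools, as those of the glycolysis and hypoxia genes did, though not always in the same order of pools. The part of the markers in the results was not tested. In bulk RNA, more cells of a type that holds a transcript and more transcript per cell cannot be told apart.

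Most glycolysis and hypoxia genes were higher with bile acids. Taking the mean of the 4 pools minus vehicle, 26 of the 30 tested genes rose and 2 (Pkm and Pdk1) fell, at a Benjamini-Hochberg adjusted p under 0.05 over all 13159 genes in edgeR's quasi-likelihood test. Of all tested genes 57.9% passed, 27.7% higher and 30.3% lower, so the share of members passing, 93.3%, exceeded the background on the side of higher genes and not on that of lower ones. The median log2 change (log2 of the fold change, so that 1 is a doubling) of the 30 was 0.38, against -0.01 over all tested genes. With library sizes alone as the scale, without the TMM factors (a trimmed mean that sets most genes level), 16 rose and 2 fell, the median of all genes shifted to -0.16, and 30.8% of all genes called were higher, against 47.7% with TMM. With a term for library set 15 rose and none fell, and all 28 genes kept their direction.

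The pools differed in how much they moved these genes. In M90, 25 of 30 tested genes rose and none fell, where 54.7% of all genes passed (26.2% higher), with a median log2 change of 0.45. In M10, 27 rose and 2 fell (Pkm and Pdk1), where 64.5% of all genes passed (31.2% higher and 33.3% lower), with a median of 0.55. In H90, 7 rose and Hif1a fell, where 21.6% of all genes passed (11.7% higher and 9.86% lower), with a median of 0.13. In H10, 18 rose and 2 fell (Pkm and Pdk1), where 48.5% of all genes passed (24% higher and 24.5% lower), with a median of 0.31. These 4 comparisons share the vehicle libraries and are not independent of each other. Read without a test, the 3 libraries of a pool lay wholly above or below the 3 of vehicle for 22 genes higher and 1 lower in M90, where 64.8% of all genes lay apart (31% higher and 33.8% lower). The same held for 26 higher and 2 lower in M10 against 68.2% of all genes (32.8% higher and 35.4% lower), for 12 higher and 2 lower in H90 against 34.4% (16.5% higher and 17.9% lower), and for 21 higher and 2 lower in H10 against 60% (29.2% higher and 30.8% lower). The highest mean level of a gene was in M10 for 21 of the 30 tested genes, in M90 for 7 and in vehicle for Pkm and Pdk1. The lowest mean was in vehicle for 24, in H90 for 4 and in M10 for 2. This order was not counted over all tested genes, so it is not read as particular to these 30. Slc2a1, Pfkp, Vegfa, Car9, Car12 and Ankrd37 rose in all 4 pools. Fewer calls stood with a term for library set, which left 13 calls in M90, 18 in M10, 3 in H90 and 19 in H10, all of them among the calls without the term. Only H90 holds libraries of both sets, so the term rests on H90 a against H90 b and c. A call could be lost with its size kept or with a smaller one. In M90 the log2 change of Hk1 was 0.86 without the term and 0.92 with it, and that of Hk2 0.76 and 0.46. Leaving out H90 c left 5 calls in H90, and of the alternatives tried for each pool, 12 of the 25 calls in M90, 16 of 29 in M10, 3 of 8 in H90 and 12 of 20 in H10 held in every one.

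**Figure D1:**
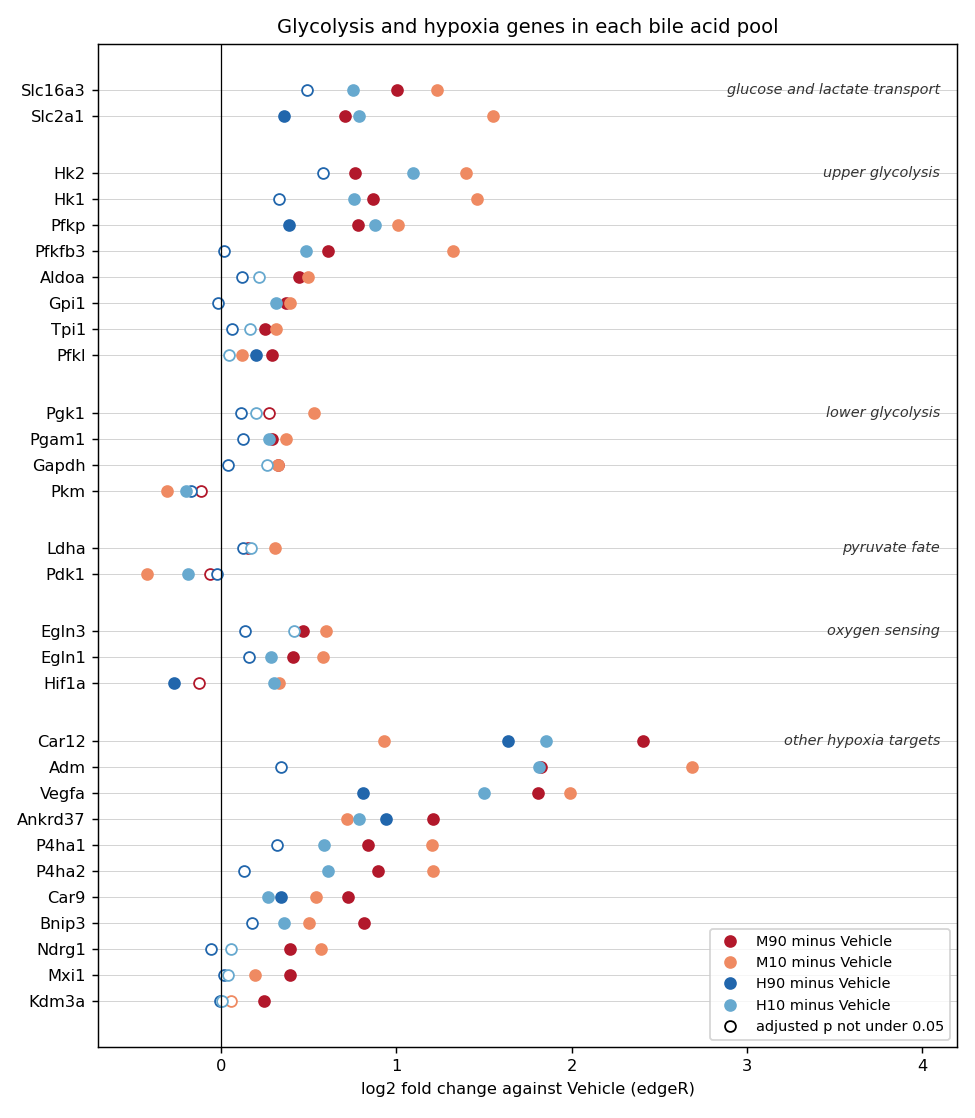
The horizontal axis is the log2 fold change of each pool against vehicle, and each row is a gene, grouped by role. Filled points have an adjusted p under 0.05 (edgeR) and open points do not. M10 (light red) lies farthest right for Slc2a1, Hk1, Hk2 and Pfkfb3, Car12 is farthest right in M90 (red), and Pkm and Pdk1 lie left of 0.

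The carriers of both ends of the pathway, glucose entry and lactate exit, rose in M90, M10 and H10. Slc2a1 encodes GLUT1, the widely expressed glucose carrier, and lies at chr4:119108711-119137983 (GRCm38). Slc2a1 had 213, 173 and 162 CPM in M90 a, b and c, 346, 356 and 279 CPM in M10, 132, 155 and 142 CPM in H90 and 201, 185 and 192 CPM in H10, against 108, 117 and 111 CPM in vehicle. Each pool lay above all vehicle libraries, and M10 lay above every other library of the series. In log2 the change was 0.71 ± 0.11 in M90, 1.55 ± 0.11 in M10, 0.36 ± 0.11 in H90 and 0.78 ± 0.11 in H10 (SE), with edgeR adjusted p-values of 6.95e-05, 1.21e-08, 0.0306 and 2.92e-05. The H90 call is the weak one: it was lost without H90 b, without H90 c and without any single vehicle library, where the log2 change was 0.29 to 0.39, and with the term for library set (log2 0.24). Slc16a3 encodes MCT4, the carrier that exports lactate from glycolytic cells. The levels of Slc16a3 were 287, 249 and 187 CPM in M90, 298, 303 and 242 CPM in M10, 158, 165 and 183 CPM in H90 and 214, 183 and 208 CPM in H10, against 108, 137 and 114 CPM in the vehicle libraries. No treated library overlapped vehicle. The log2 change of Slc16a3 was 1.01 ± 0.16 in M90, 1.23 ± 0.16 in M10, 0.49 ± 0.16 in H90 and 0.75 ± 0.16 in H10 (adjusted p = 0.000246, 3.56e-05, 0.0529 and 0.00226 by edgeR), so that H90 missed the threshold.

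All 8 enzymes of the upper, energy-consuming part of glycolysis rose in M90 and in M10, with median log2 changes of 0.52 and 0.75. In H90 Pfkl and Pfkp rose (median of the 8 0.16), and in H10 5 of them did (median 0.40). Over all tested genes the shares called higher were 26.2% in M90, 31.2% in M10, 11.7% in H90 and 24% in H10. Hk1 and Hk2 phosphorylate glucose on entry, and Hk2 is the isoform best known as a hypoxia target. For Hk1, the M90 libraries held 135, 93 and 87.4 CPM, the M10 libraries 185, 161 and 128 CPM, the H90 libraries 74.4, 75.2 and 67.7 CPM and the H10 libraries 108, 84.3 and 100.2 CPM, against 53.4, 63.4 and 55.7 CPM in vehicle. Hk2 stood at 83.4, 64.98 and 49.9 CPM in M90, 119, 105 and 83 CPM in M10, 50.9, 58.8 and 66.5 CPM in H90 and 89.2, 77.7 and 82.5 CPM in H10, against 37.5, 43.4 and 35.5 CPM in vehicle. Each treated library was above all vehicle libraries for both hexokinases. The log2 change of Hk1 was 0.86 ± 0.18 in M90, 1.46 ± 0.18 in M10, 0.33 ± 0.19 in H90 and 0.76 ± 0.18 in H10 (adjusted p = 0.00205, 2.76e-05, 0.256 and 0.0052), and that of Hk2 was 0.76 ± 0.19 in M90, 1.397 ± 0.19 in M10, 0.58 ± 0.20 in H90 and 1.09 ± 0.19 in H10 (adjusted p = 0.00577, 5.03e-05, 0.0575 and 0.000558, edgeR). H90 therefore missed the threshold for both, at 95% intervals of -0.08 to 0.75 and 0.15 to 1.01. The M90 calls of Hk1 and Hk2 were lost with the term for library set (log2 0.92 and 0.46, adjusted p = 0.0734 and 0.352).

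Pfkfb3 makes fructose 2,6-bisphosphate, the strongest activator of phosphofructokinase, and lies at chr2:11471433-11554077. Pfkfb3 had 127, 114 and 89.6 CPM in M90 a, b and c, 185, 185 and 171 CPM in M10, 72.4, 75.6 and 71.02 CPM in H90 and 100.4, 98.2 and 104 CPM in H10, against 67, 83.9 and 64.96 CPM in vehicle. M10 stood apart from all other libraries, and H90 overlapped vehicle. The change was 0.61 ± 0.10 in M90, 1.32 ± 0.10 in M10, 0.02 ± 0.11 in H90 and 0.48 ± 0.10 in H10 on the log2 scale (adjusted p = 7.79e-05, 2.24e-09, 0.934 and 0.000862 by edgeR), and the 95% interval in H90 was -0.21 to 0.24. Pfkp is the platelet-type phosphofructokinase, which carries out the committed step. The levels of Pfkp were 733, 642 and 597 CPM in M90, 804, 801 and 708 CPM in M10, 492, 497 and 514 CPM in H90 and 719, 678 and 715 CPM in H10, against 375, 417 and 358 CPM in the vehicle libraries. The 4 pools all lay above vehicle, with H90 the lowest of them. Pfkp rose in each pool, by 0.78 ± 0.07 in M90, 1.01 ± 0.07 in M10, 0.39 ± 0.07 in H90 and 0.88 ± 0.07 in H10 log2 (adjusted p = 1.64e-09, 1.18e-11, 0.000165 and 2.71e-10, edgeR), and these 4 calls held under every alternative. Its liver-type counterpart Pfkl, with 358 ± 29.5, 318 ± 18.2, 335 ± 11.6 and 302 ± 8.63 CPM in M90, M10, H90 and H10 and 292 ± 8.86 CPM in vehicle (mean ± SD, n = 3), changed little, by at most 0.29 log2, and its M10 and H90 calls were lost with the term for library set (adjusted p = 0.373 and 0.115, edgeR). With library sizes alone as the scale the M10 change of Pfkl turned to -0.14 and passed the test. Gpi1, Aldoa and Tpi1, which isomerise glucose 6-phosphate, split fructose bisphosphate and interconvert the triose phosphates, rose in M90 and M10 by 0.25 to 0.44 and 0.31 to 0.50 log2. With the term for library set all 6 of these calls were lost, at adjusted p = 0.145, 0.307 and 0.419 for Gpi1, Aldoa and Tpi1 in M90 and 0.0938, 0.193 and 0.212 in M10 (edgeR). In H90 their values were -0.02 to 0.12 with none passing, and in H10 Gpi1 alone of these 3 passed (0.31). Pitrm1 overlaps Pfkp and Spsb2 overlaps Tpi1 on the opposite strand, and since the strand setting of the counting is not given, reads of overlapping genes cannot be told apart.

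The enzymes of the lower, energy-yielding part moved less, and Pkm moved the other way. Per kilobase of exon, vehicle held 739.8 ± 39.9 CPM of Ldha, 489 ± 26.6 of Aldoa, 440.2 ± 22.3 of Pkm and 356 ± 25.2 of Gapdh, against 6.74 ± 0.615 of Hk1 and 6.502 ± 0.694 of Hk2 (mean ± SD, n = 3). Gapdh, which oxidises glyceraldehyde 3-phosphate and is often taken as a reference gene, can be read library by library. The levels of Gapdh were 2126, 1812 and 1573 CPM in M90, 1928, 1944 and 1652 CPM in M10, 1462, 1458 and 1604 CPM in H90 and 1848, 1636 and 1805 CPM in H10, against 1378, 1583 and 1448 CPM in the vehicle libraries. M10 lay above all vehicle libraries and M90 overlapped them. On the log2 scale Gapdh was at 0.32 ± 0.11 in M90, 0.33 ± 0.11 in M10, 0.04 ± 0.11 in H90 and 0.26 ± 0.11 in H10 (adjusted p = 0.0256, 0.0202, 0.86 and 0.0656, edgeR). The Gapdh calls in M90 and M10 are weak: they ended without some libraries (M90 a or b, M10 a or b, vehicle a or c), where the change was 0.20 to 0.33 in M90 and 0.28 to 0.31 in M10, and with the term for library set (0.25 and 0.26). Pgk1, which makes the first ATP of the pathway, passed in M10 only. Pgk1 stood at 449, 379.8 and 326 CPM in M90, 488, 490.2 and 402 CPM in M10, 342, 342 and 349.8 CPM in H90 and 386, 338 and 376 CPM in H10, against 298, 345 and 313 CPM in vehicle. The M10 libraries lay above vehicle, and those of M90, H90 and H10 overlapped it. Its values against vehicle were 0.27 ± 0.11 in M90, 0.53 ± 0.11 in M10, 0.11 ± 0.11 in H90 and 0.20 ± 0.11 in H10 log2 (adjusted p = 0.0621, 0.00145, 0.556 and 0.174, edgeR), and the M10 call was lost with the term for library set (adjusted p = 0.0747). Pgam1 is phosphoglycerate mutase 1. Pgam1 had 137, 124 and 107 CPM in M90 a, b and c, 128, 134 and 125 CPM in M10, 106, 107 and 115 CPM in H90 and 119.5, 122 and 121 CPM in H10, against 96.4, 107 and 96.5 CPM in vehicle. Pgam1 rose in M90, M10 and H10 by 0.29, 0.37 and 0.27 log2 (adjusted p = 0.000341, 9.76e-06 and 0.000893, edgeR), and in H90 it was at 0.12 with adjusted p = 0.205. With library sizes alone as the scale none of the 3 calls passed (log2 0.10 to 0.14), and the M90 call was also lost with the term for library set.

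Pkm encodes the M isoforms of pyruvate kinase, which make pyruvate from phosphoenolpyruvate. For Pkm, the M90 libraries held 2304, 1990.2 and 1812 CPM, the M10 libraries 1838, 1812 and 1691 CPM, the H90 libraries 1891, 1886 and 2083 CPM and the H10 libraries 2000.3, 1816 and 1932 CPM, against 2135, 2329.8 and 2139 CPM in vehicle. Every M10, H90 and H10 library was below every vehicle library, and M90 overlapped vehicle. The log2 change of Pkm was -0.11 ± 0.07 in M90, -0.31 ± 0.07 in M10, -0.17 ± 0.07 in H90 and -0.20 ± 0.07 in H10 (adjusted p = 0.203, 0.00154, 0.107 and 0.0314, edgeR), so Pkm fell in M10 and H10. The H10 call was lost without H10 b, without H10 c, without vehicle b and without vehicle c (log2 -0.22 to -0.16), while the M10 call held throughout. Eno1 was at 0 to 11 counts in each library, 32 counts in all 15, with 4 libraries at 0, and was not tested. A near-identical copy, which the files list as Gm5506 and RefSeq as Eno1b, held 69 counts, from 0 to 10 in a library. How reads that map to several places were handled is not given, so the level of enolase cannot be read from these counts. Other glycolytic enzymes, Gapdh among them, also have near-identical pseudogenes, and their counts carry the same uncertainty.

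Pyruvate fate is decided between lactate and the mitochondria by Ldha and by Pdk1, which switches off pyruvate dehydrogenase by phosphorylation. Ldha had 3112, 2691 and 2355 CPM in M90 a, b and c, 3168, 3132 and 2779.8 CPM in M10, 2605, 2658 and 2738 CPM in H90 and 2817, 2567 and 2867 CPM in H10, against 2326, 2588 and 2432 CPM in vehicle. Ldha rose in M10, where all 3 libraries were above vehicle, by 0.31 log2 (adjusted p = 0.00948, edgeR) and did not pass elsewhere: the values were 0.15 in M90 (95% interval -0.04 to 0.35), 0.12 in H90 (-0.07 to 0.32) and 0.17 in H10 (-0.03 to 0.36). The M10 call of Ldha was lost with the term for library set (adjusted p = 0.256). Pdk1 fell in M10 and H10. The levels of Pdk1 were 186, 163 and 148 CPM in M90, 129.8, 124 and 133 CPM in M10, 173, 178 and 160.1 CPM in H90 and 163, 143 and 149 CPM in H10, against 165, 182 and 172 CPM in the vehicle libraries. M10 was below all libraries of every other group, and in the H10 group all 3 were below vehicle. In log2 the values were -0.06 ± 0.06 in M90, -0.42 ± 0.06 in M10, -0.02 ± 0.06 in H90 and -0.19 ± 0.06 in H10 (adjusted p = 0.413, 6.63e-07, 0.863 and 0.0153 by edgeR). The H10 call of Pdk1 was lost without H10 b, H10 c or vehicle b (log2 -0.18 to -0.15), and the M10 call held under every alternative.

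The prolyl hydroxylases rose in the mouse-modelled pools, and Hif1a moved in either direction by pool. Egln1 and Egln3 encode prolyl hydroxylases that tag HIF-1α for degradation, and both are themselves induced by hypoxia. The levels of Egln3 were 441, 327 and 259 CPM in M90, 412, 386 and 325 CPM in M10, 264, 276 and 276 CPM in H90 and 346, 298 and 345 CPM in H10, against 220.3, 276 and 245 CPM in the vehicle libraries. Egln1 stood at 118, 107 and 95.04 CPM in M90, 118, 132 and 112 CPM in M10, 86.96, 94.5 and 87.2 CPM in H90 and 94.98, 96.2 and 102 CPM in H10, against 77.95, 87.6 and 75.2 CPM in vehicle. The log2 change of Egln3 was 0.47 ± 0.17 in M90, 0.60 ± 0.17 in M10, 0.14 ± 0.17 in H90 and 0.41 ± 0.17 in H10 (adjusted p = 0.0399, 0.00997, 0.646 and 0.07) and that of Egln1 was 0.41 ± 0.07 in M90, 0.58 ± 0.07 in M10, 0.16 ± 0.07 in H90 and 0.28 ± 0.07 in H10 (adjusted p = 1.28e-05, 1.07e-08, 0.138 and 0.00155, edgeR). Both rose in M90 and M10, and Egln1 rose in H10 also. In M90 the Egln3 call was lost without M90 a (log2 0.24) and without any of 9 other single libraries, at log2 values of 0.24 to 0.50 in all, and both its calls were lost with the term for library set (adjusted p = 0.404 in M90 and 0.215 in M10). Egln1 was lost in M90 with that term (adjusted p = 0.0509).

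Hif1a encodes the α subunit itself, which is controlled mainly through its protein. For Hif1a, the M90 libraries held 83.2, 90 and 95.7 CPM, the M10 libraries 111, 128 and 130.2 CPM, the H90 libraries 87.3, 88.98 and 64.9 CPM and the H10 libraries 127, 123 and 112 CPM, against 99.2, 97.6 and 96.5 CPM in vehicle. M10 and H10 were above all vehicle libraries, and M90 and H90 were below them. The log2 change was -0.12 ± 0.09 in M90, 0.33 ± 0.08 in M10, -0.27 ± 0.09 in H90 and 0.30 ± 0.08 in H10 (adjusted p = 0.227, 0.00123, 0.0239 and 0.00405, edgeR), so Hif1a transcript rose in both pools with 10% 12α-hydroxylated bile acids and fell in H90. H90 c was the lowest library of the series, and without it the change in H90 was -0.15 with adjusted p = 0.149, and the call was lost without any single vehicle library (log2 -0.28 to -0.26). With library sizes alone as the scale, Hif1a was at 0.07 in M10 and 0.17 in H10 and passed in neither. The H90 call was also lost with the term for library set (log2 -0.16, adjusted p = 0.493, edgeR). With that term Hif1a in M90 turned to 0.05 and did not pass, while M10 and H10 still passed, at 0.50 and 0.30.

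The other hypoxia targets held the largest changes of the list: all 11 rose in M90, 10 in M10 (all but Kdm3a), 4 in H90 and 8 in H10. Their median log2 changes were 0.84, 0.72, 0.32 and 0.59 in the same pools. Of all tested genes, 26.2%, 31.2%, 11.7% and 24% were called higher in M90, M10, H90 and H10. Adm encodes adrenomedullin, a vasodilator peptide that hypoxia induces, at chr7:110627661-110629820. Adm stood at 22.6, 14.5 and 10.2 CPM in M90, 35.8, 29.98 and 19.5 CPM in M10, 4.42, 6.45 and 6.26 CPM in H90 and 18.96, 13.2 and 14.7 CPM in H10, against 3.96, 5.91 and 3.22 CPM in vehicle. All M90, M10 and H10 libraries were above vehicle and H90 overlapped it. The log2 change was 1.82 ± 0.34 in M90, 2.68 ± 0.33 in M10, 0.34 ± 0.36 in H90 and 1.81 ± 0.34 in H10 (adjusted p = 0.000429, 8.59e-06, 0.574 and 0.000516, edgeR). Adm in M10 was 6.43 times vehicle, the largest change in the list. Adm had at most 35.8 CPM in any library, and in M90 its call was lost with the term for library set (log2 1.298, adjusted p = 0.146). In H90 the 95% interval for Adm was -0.45 to 1.13.

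Vegfa encodes the vascular growth factor. Vegfa had 330.2, 268 and 229 CPM in M90 a, b and c, 335, 335 and 267 CPM in M10, 133, 132 and 149 CPM in H90 and 225, 211 and 231 CPM in H10, against 66.9, 89.9 and 78.03 CPM in vehicle. No library of a pool overlapped vehicle. The log2 change was 1.81 ± 0.15 in M90, 1.99 ± 0.15 in M10, 0.81 ± 0.15 in H90 and 1.501 ± 0.15 in H10 (adjusted p = 1.08e-06, 2.9e-07, 0.00289 and 6.23e-06, edgeR), or 3.504, 3.98, 1.75 and 2.83 times vehicle in M90, M10, H90 and H10. Only the H90 call was lost with the term for library set. Car12 encodes carbonic anhydrase 12, a membrane enzyme that interconverts carbon dioxide and bicarbonate, and Car9 its better known hypoxia-induced relative. The levels of Car12 were 79.1, 75.3 and 88.6 CPM in M90, 28.4, 30.2 and 28.5 CPM in M10, 47.3, 51.7 and 42.7 CPM in H90 and 46.9, 66.3 and 52.5 CPM in H10, against 15.03, 15.4 and 15.3 CPM in the vehicle libraries. All pool libraries were above vehicle, and M90 was the highest and M10 the lowest of the pools. The log2 change of Car12 was 2.41 ± 0.10 in M90, 0.93 ± 0.11 in M10, 1.64 ± 0.10 in H90 and 1.86 ± 0.10 in H10 (adjusted p = 4.65e-21, 1.01e-09, 4.9e-15 and 1.53e-17, edgeR), and these calls held under every alternative. Ankrd37, an ankyrin repeat protein and HIF-1 target, rose in each pool. For Ankrd37, the M90 libraries held 115, 87.8 and 79.4 CPM, the M10 libraries 73.01, 71.8 and 54.99 CPM, the H90 libraries 72.2, 73.3 and 89.1 CPM and the H10 libraries 71.6, 68.3 and 70.2 CPM, against 33.8, 45.8 and 41.3 CPM in vehicle. Its log2 change was 1.21 ± 0.16 in M90, 0.72 ± 0.16 in M10, 0.94 ± 0.16 in H90 and 0.79 ± 0.16 in H10 (adjusted p = 2.14e-05, 0.00133, 0.000855 and 0.000989, edgeR), and the M10 call alone was lost with the term for library set (adjusted p = 0.135). Ankrd37 overlaps Ufsp2 on the opposite strand, which held 541 to 1583 counts per library, and these cannot be told apart without the strand setting.

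The remaining targets followed at smaller sizes. Car9 rose in each pool, by 0.72 in M90, 0.54 in M10, 0.34 in H90 and 0.27 in H10 on the log2 scale, against 111 ± 8.29 CPM in vehicle (mean ± SD, n = 3). P4ha1 and P4ha2, the collagen prolyl hydroxylase subunits, rose in M90, M10 and H10, P4ha1 by 0.84, 1.203 and 0.59 and P4ha2 by 0.89, 1.21 and 0.61. Bnip3, a mitophagy receptor, rose in M90, M10 and H10 (0.82, 0.50 and 0.36). Ndrg1, a stress-responsive protein of differentiated epithelium, and Mxi1, an antagonist of Myc, rose in M90 and M10, by 0.39 and 0.57 for Ndrg1 and by 0.39 and 0.19 for Mxi1. With library sizes alone as the scale Mxi1 in M10 turned to -0.070. With the term for library set the calls of Car9 in H90 (log2 0.26, adjusted p = 0.241), Bnip3 in M10 and H10 (adjusted p = 0.166 and 0.0525), Ndrg1 in M90 (adjusted p = 0.199) and Mxi1 in M90 and M10 (adjusted p = 0.0848 and 0.447, edgeR) were lost. Kdm3a, a histone demethylase, passed in M90 only (0.25), and its M10 value of 0.05 turned to -0.21 and passed as a fall with library sizes alone.

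**Figure D2:**
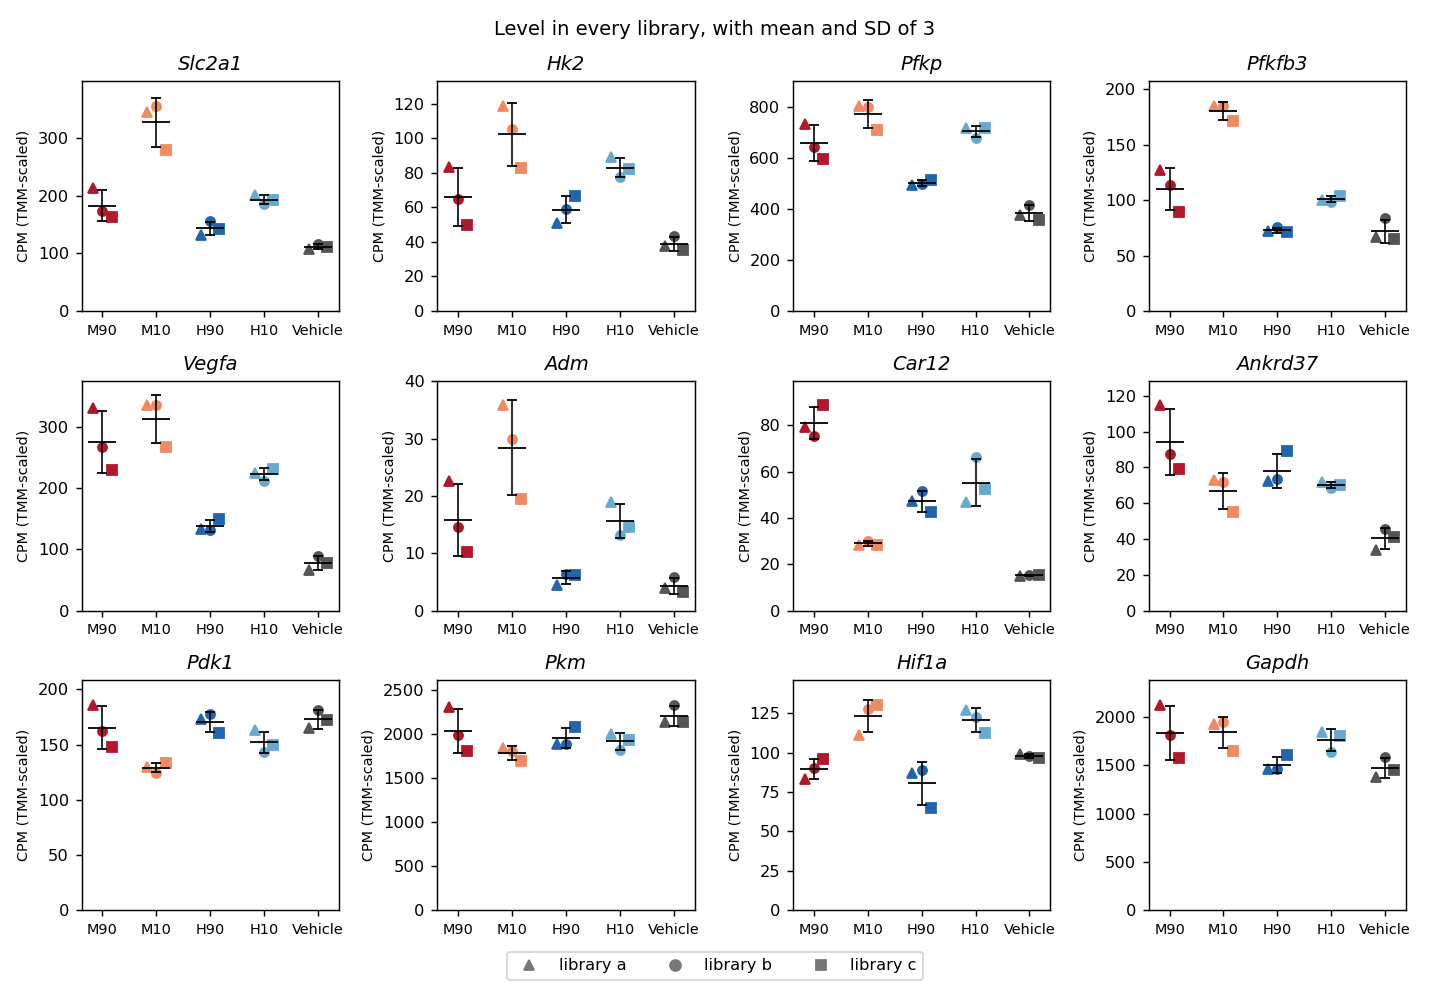
Level of 12 of the genes in each library, as CPM on TMM-scaled totals, with M90, M10, H90, H10 and vehicle from left to right; the bar is the mean and SD of 3 libraries. Slc2a1 and Pfkfb3 peak in M10, Car12 in M90, and Pdk1 is lowest in M10.

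Between the mouse-modelled pools, M90 minus M10 compares the 12α-hydroxylated shares: 14 of 30 tested genes differed, 6 higher and 8 lower in M90, where 41.2% of all genes passed (21.3% higher and 20% lower). The libraries lay apart for 3 genes higher and 3 lower, where 50.2% of all genes did (26.5% higher and 23.7% lower). Those lower in M90 were Slc2a1, Hk1, Hk2, Pfkp, Pfkfb3, Hif1a, P4ha1 and Adm, and those higher were Pfkl, Pkm, Pdk1, Car12, Ankrd37 and Kdm3a. The median difference of the 30 was -0.14 log2. The log2 difference was -0.84 for Slc2a1 (adjusted p = 1.7e-05), -0.72 for Pfkfb3 (adjusted p = 1.54e-05) and -0.46 for Hif1a (adjusted p = 7.84e-05), while Car12 was higher by 1.48 (adjusted p = 5.19e-15) and Pdk1 by 0.36 (adjusted p = 2.6e-05, edgeR). Those 5 calls held in every alternative and the other 9 were lost in at least 1. The count itself ran from 8 to 25, and it was 8 in a fit of these groups alone. Without M90 a and M10 c it was 23, of which 21 were lower in M90. M90 a and M10 c were picked by the levels of these same genes, high in M90 a and low in M10 c. Leaving them out lowers M90 minus M10 for most of these genes by construction, so nothing is read from that count.

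Between the human-modelled pools, H90 minus H10 gave 10 of 30, 2 higher (Pfkl and Pdk1) and 8 lower (Slc2a1, Gpi1, Pfkp, Pfkfb3, Hif1a, Vegfa, P4ha2 and Adm), where 36.6% of all genes passed (18.2% higher and 18.4% lower), and a median of -0.20 log2. The libraries lay apart for 2 genes higher and 15 lower, where 45.7% of all genes did (22.7% higher and 22.9% lower). The log2 difference was -1.47 for Adm (adjusted p = 0.00376), -0.69 for Vegfa (adjusted p = 0.00322), -0.57 for Hif1a (adjusted p = 5.19e-06, edgeR), -0.49 for Pfkp, -0.46 for Pfkfb3 and -0.43 for Slc2a1, and these 6 calls held in every alternative. The comparisons of 90% with 10% in the mouse and in the human model share no library. Slc2a1, Pfkl, Pfkp, Pfkfb3, Pdk1, Hif1a and Adm were called in the same direction in both, 7 of 14 (50%) and 7 of 10 (70%), where over all genes 55.2% and 62.2% of the calls were shared in that way.

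The difference between those differences was tested as an interaction of share and species model. Of the 30 tested genes Car12 alone passed, where 14.8% of all genes did (7.85% higher and 6.92% lower). Its M90 minus M10 difference exceeded its H90 minus H10 difference by 1.701 log2 (SE 0.14, 95% interval 1.42 to 1.98, adjusted p = 1.67e-11, edgeR). Car12 was 1.48 ± 0.10 log2 (SE) higher in M90 than in M10, and in H90 minus H10 the value was -0.22 ± 0.10, which did not pass (adjusted p = 0.0721). For Slc2a1 and Vegfa the interaction was -0.42 (95% interval -0.74 to -0.09, adjusted p = 0.0847) and 0.51 (0.06 to 0.96, adjusted p = 0.134, edgeR), which did not pass. Under some alternatives more genes passed. Slc2a1, Gpi1, Pfkp, Bnip3 and Vegfa did so with no filter on low counts, with limma-voom and with non-robust shrinkage. With limma-voom the adjusted p was 0.00937 for Slc2a1 and 0.00693 for Vegfa.

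**Figure D3:**
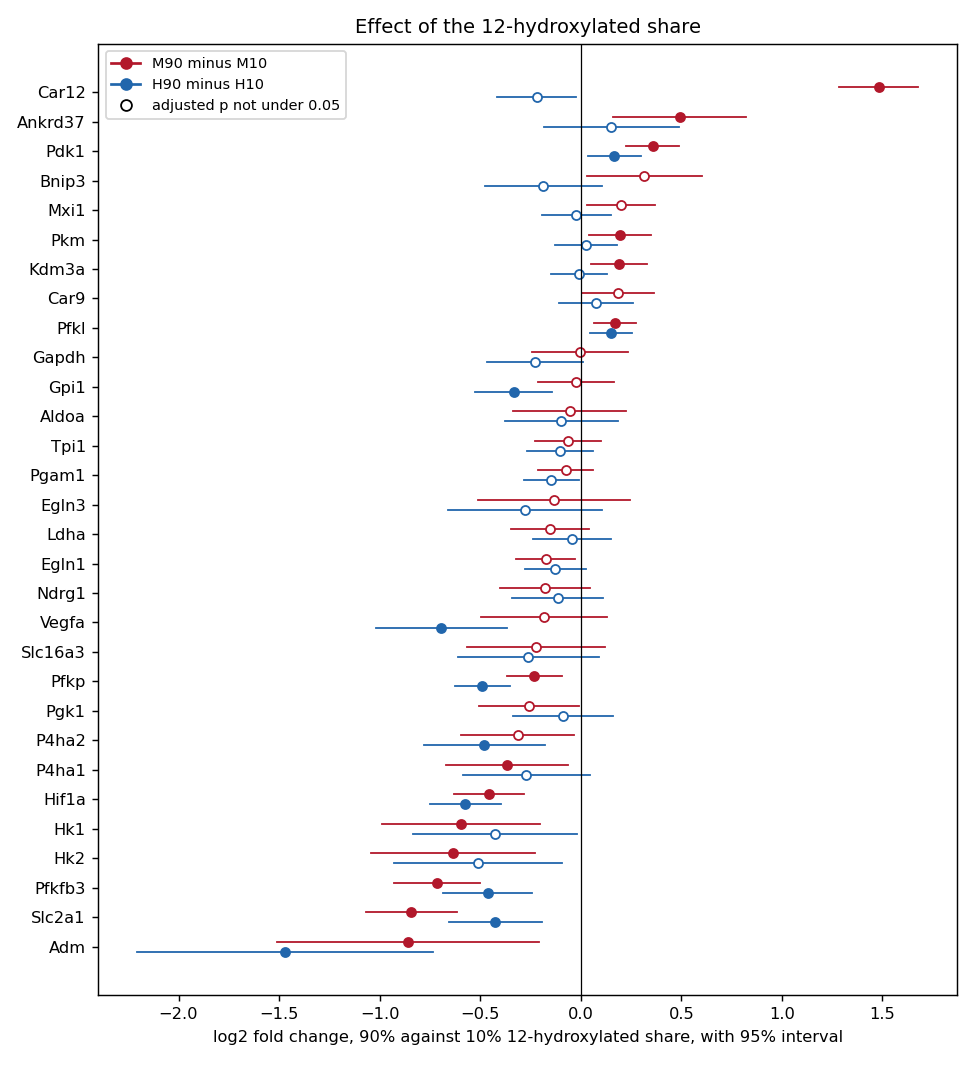
Horizontal axis: log2 difference between pools with 90% and 10% 12α-hydroxylated bile acids in the mouse model (red) and the human model (blue), with 95% intervals; one row for each of the 30 tested genes. Slc2a1, Pfkfb3 and Adm lie left of 0 in both, and Car12 lies right of 0 in the mouse model alone.

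At a matched share, most of the genes that differed were higher in the mouse-modelled pool. M90 minus H90 gave 18 of 30 higher and none lower, where 38.8% of all genes passed (19.2% higher), with a median log2 difference of 0.34. M10 minus H10 gave 12 higher and 2 lower (Pdk1 and Car12), where 36.3% of all genes passed (18.2% higher and 18.1% lower), with a median of 0.17. In both comparisons 11 genes were higher (Slc2a1, Slc16a3, Hk1, Pfkfb3, Egln1, Vegfa, Car9, P4ha1, P4ha2, Ndrg1 and Adm), 61.1% and 78.6% of the calls in each, where over all genes the shares were 54.9% and 58.6%. Vegfa was higher in M90 than in H90 by 1.002 ± 0.15 log2 (SE) and Adm by 1.48 ± 0.34, with adjusted p = 0.000228 and 0.00334 (edgeR). Pfkfb3 was higher in M10 than in H10 by 0.84 ± 0.10 and Slc2a1 by 0.76 ± 0.10 (adjusted p = 3.26e-06 and 5.5e-05, edgeR). M10 and H10 share no library set, and with the term for set 3 calls remained in that comparison (Slc2a1, Pfkfb3 and Car12), while M90 minus H90 within set 2 gave 13.

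Within a group, these genes moved together from library to library. In M90, library a was the highest of its group for 28 of 30 genes, all but Hif1a and Car12, and library c the lowest for 28, again all but Hif1a and Car12, where of all tested genes M90 a was the highest for 35.03% and M90 c the lowest for 33.9%. In M10, library c was the lowest for 27 of 30 (all but Pdk1, Hif1a and Car12), where it was the lowest for 36.9% of all genes. In vehicle, library b was the highest for 29 of 30 (all but Hif1a), against 31.3% of all genes. The median deviation of the 30 genes from their group mean was 0.22 log2 in M90 a, -0.22 in M90 c, -0.14 in M10 c and 0.11 in vehicle b, while the median over all tested genes lay between -0.01 and 0.01 in each of the 15 libraries. The median coefficient of variation was 14.8% in M90 against 5.29% over the 8789 genes of at least 10 CPM, and 5.44% in H90 against 7.31%.

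Hif1a and Car12 stood outside that order. In M90 a, b and c, Hif1a was 83.2, 90 and 95.7 CPM and Car12 79.1, 75.3 and 88.6 CPM, while Slc16a3 was 287, 249 and 187 CPM. The list of 31 tested hypoxia targets outside the 30 genes followed it: M90 a was the highest for 25, M90 c the lowest for 21, M10 c the lowest for 20 and vehicle b the highest for 18. Proliferation markers summed to 342, 369 and 362 CPM in M90 a, b and c and enterocyte markers to 27890, 29518 and 28432 CPM, so neither followed the order of the 30 genes in M90. In vehicle the enterocyte sum was highest in b, at 16121, 17358 and 14829 CPM in vehicle a, b and c, and the proliferation sum lowest there, at 1724, 1676 and 1790 CPM, as most of the 30 genes were highest in b. The part of these markers in the spread was not tested. M90 minus vehicle was also fitted without M90 a (and without M10 c), chosen after seeing the data. The median of the 30 genes was then 0.31, against 0.45 with all libraries, with 27 calls (25 higher and 2 lower). M90 a, the highest library for most of these genes, was left out, while M90 c, the lowest, was kept. The lower median follows from that choice and is no check of the M90 result. The cause of this spread between libraries was not tested.

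**Figure D4:**
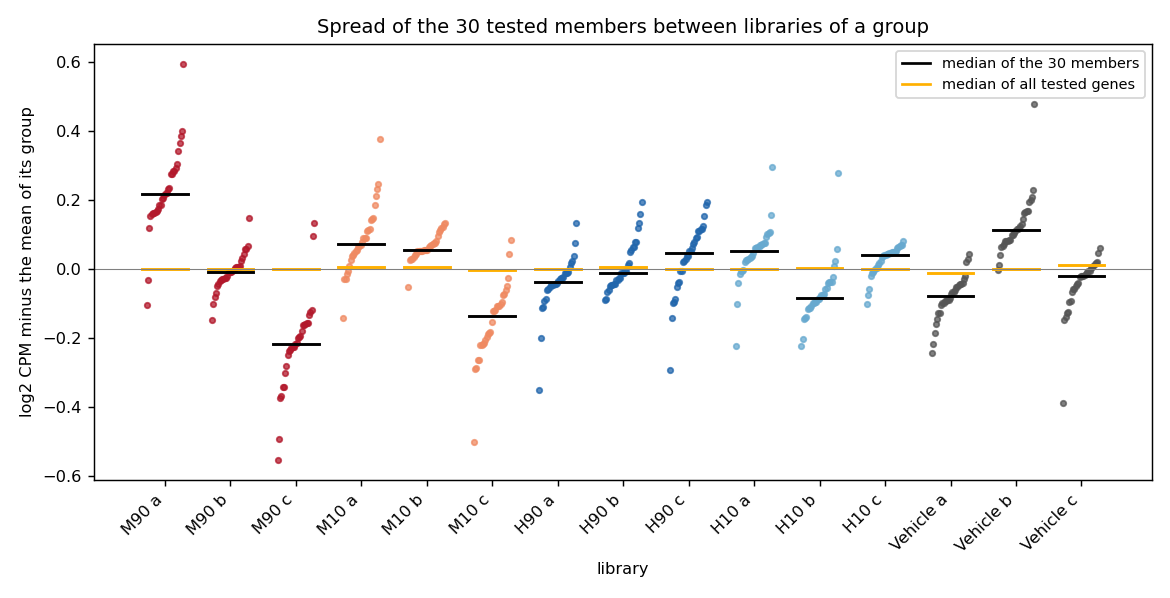
Each point is one of the 30 tested genes in one library, as log2 CPM minus the mean of its group; the black line is the median of the 30 and the orange line the median of all tested genes. The 30 genes sit above 0 in M90 a and vehicle b and below 0 in M90 c and M10 c, while the median of all genes stays near 0.

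Genes beside the list, taken from the same pathways, give the wider setting. Of 16 tested other glycolysis enzymes and transporters, averaged over the pools 4 rose and 7 fell, with a median log2 change of -0.05. Those called were 68.8% of the 16, where 57.9% of all genes passed (27.7% higher and 30.3% lower). Hkdc1, a hexokinase-domain protein, had 609 ± 22.2, 727 ± 14.2, 459 ± 19.4 and 529 ± 5.496 CPM in M90, M10, H90 and H10, against 363 ± 10.4 CPM in vehicle (mean ± SD, n = 3), and rose by 0.66 log2 on the mean of the pools (adjusted p = 1.57e-18). Pfkfb4, the relative of Pfkfb3, rose by 0.48 (adjusted p = 9.74e-11). Pklr, the liver and red cell pyruvate kinase, fell by 0.56 (adjusted p = 2.97e-11, edgeR). The Pklr libraries of every pool lay below those of vehicle.

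Pdk4 had the largest change of the genes beside the list. Pdk4, another pyruvate dehydrogenase kinase, had 115 ± 15.7 CPM in M90, 119 ± 13.1 CPM in M10, 26.6 ± 3.11 CPM in H90 and 45.4 ± 7.63 CPM in H10, against 2.98 ± 1.66 CPM in vehicle (mean ± SD, n = 3). Pdk4 rose by 5.17, 5.21, 3.06 and 3.82 log2 in the same pools (adjusted p = 1.22e-08, 6.52e-09, 1.44e-05 and 2.98e-07, edgeR). Of the 13 genes of the pyruvate dehydrogenase complex and its regulators, 8 rose and 3 fell on the mean of the pools. Among them were Pdk2 (0.32), the subunit Dlat (0.29) and the subunit Pdhx (-0.60). Those called were 84.6% of the 13, where 57.9% of all genes passed (27.7% higher and 30.3% lower). Of the 10 tested genes of fructose entry and gluconeogenesis, 4 rose and 4 fell on the mean of the pools (80% called, against that 57.9%). Pcx, pyruvate carboxylase, rose by 1.92 in M90, 2.24 in M10, 1.22 in H90 and 1.84 in H10 (adjusted p = 4.31e-19, 2.03e-21, 2.39e-12 and 2.45e-18, edgeR), while Fbp2, a fructose bisphosphatase, rose by 0.37 and Slc37a4, the glucose 6-phosphate carrier of the endoplasmic reticulum, fell by 0.32 on the mean of the pools. None of the 8 pentose phosphate genes rose and 3 fell (37.5% called, against 57.9% of all genes), H6pd by 0.54, Rpia by 0.38 and Pgd by 0.09.

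Of 12 tested genes of the oxygen-sensing machinery beside the list, Epas1 rose and Cited2 fell on the mean of the pools. They were 16.7% of the 12, where 57.9% of all genes passed. By pool, 2 were higher and 4 lower in M90, 3 higher and 2 lower in M10, 1 higher and 2 lower in H90 and 1 higher and 1 lower in H10. The shares called were 50%, 41.7%, 25% and 16.7% in M90, M10, H90 and H10. Of all genes 54.7%, 64.5%, 21.6% and 48.5% passed in the same pools. Hif3a, a further α subunit, and Arnt2, a partner of the α subunits, stood out in M10 and were picked here after their values were seen. Hif3a had 28.8, 28.96 and 18.1 CPM in M10 a, b and c against 8.45, 7.31 and 7.74 CPM in vehicle (log2 1.697, adjusted p = 0.000124, edgeR). Arnt2 had 20.1, 20.4 and 19.2 CPM in M10 against 9.55, 10.9 and 9.42 CPM in vehicle (log2 0.998, adjusted p = 8.21e-07, edgeR), and it fell in M90 and H90 (log2 -0.41 and -0.50). Epas1 encodes HIF-2α and had 73.4 ± 5.31, 99.5 ± 4.31, 51 ± 1.94 and 72.1 ± 7.19 CPM in M90, M10, H90 and H10, against 50.4 ± 6.06 CPM in vehicle (mean ± SD, n = 3), a log2 change of 0.54, 0.98, 0.01 and 0.51 in the same order. Cited2, which competes with HIF for its coactivators, fell by 0.27 (adjusted p = 1.43e-06, edgeR). Averaged over the pools, 18 of 31 tested hypoxia targets outside the list rose and 2 fell, at a median log2 change of 0.35. Those called were 64.5% of the 31, where 57.9% of all genes passed (27.7% higher and 30.3% lower). Angptl4, an inhibitor of lipoprotein lipase, rose by 1.18, the sterol regulator Insig2 by 1.15, the lipoprotein receptor Vldlr by 1.24 and the transferrin receptor Tfrc by 0.37 log2 on the mean of the pools (adjusted p = 1.54e-19, 1.25e-18, 5.1e-14 and 2.63e-11, edgeR). Each of these 4 genes is also known to respond to signals other than hypoxia.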

How the data were processed

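Poly-A RNA of 15 libraries was sequenced after TruSeq preparation, with RNA integrity above 8, per the labels' protocols. Reads were handled with bcl2fastq 2.17, STAR 2.5.2b and featureCounts 1.5.0-p3 on mm10 (GRCm38), per the submitters' processing notes. The deposited files hold raw counts per gene symbol. Annotation, strand setting and the handling of multimapping reads are not given in the sources used here. Genes were filtered with filterByExpr, scaled by TMM and tested with edgeR 4.0.16 (quasi-likelihood F test, robust, 5 group means, 10 residual degrees of freedom, two-sided) in R 4.3.3, with Benjamini-Hochberg adjustment over all 13159 tested genes. Standard errors come from the F statistic. CPM use TMM-scaled totals, except for Mup20 and Col1a1. The procedure was also run on simulated data in which a small share of genes changed, in H10 alone and without library sets. That run does not cover changes as broad as those seen here. Total counts per library were 11245807 to 28989526, and the common dispersion gave a coefficient of variation of 8.81%. Promoters came from RefSeq windows on GRCm38.p6, and gene positions from the GENCODE annotation of GRCm38.

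The members and lists were chosen with earlier results of these data known. Genes given in every library were, in each role, up to 4 members of at least 2 CPM with the largest change among those passing in some pool. Of the wider lists, up to 4 genes with the smallest adjusted p on the mean of the pools were named, by group means or log2 changes. Hif3a and Arnt2 were added outside this rule. A gene of the wider lists that this rule names is not reported here. Alternatives were RLE and library size scaling, other filters, DESeq2 1.42.0, limma-voom (limma 3.58.1), non-robust shrinkage, fits restricted to the groups compared, a term for library set, a replicate block, leaving out each library and, chosen after seeing the data, fits within a library set and without M90 a and M10 c.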

Additional observations from a re-analysis of the deposited data

Results flagged for a closer look

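In the main edgeR fit, Car12 was the single member whose response to the 12α-hydroxylated share differed between the mouse-modelled and the human-modelled pools. This was read from the test of the difference itself. Some alternatives called other members too, as described above. Car12 differed by 1.48 log2 in M90 minus M10 and by -0.22 in H90 minus H10, a difference of 1.701 (adjusted p = 1.67e-11, edgeR). Mean levels were 80.99 ± 6.88 CPM in M90 and 29.01 ± 0.992 CPM in M10, and 47.3 ± 4.49 CPM in H90 and 55.2 ± 10.01 CPM in H10 (mean ± SD, n = 3). The difference passed in all 26 alternatives, at 1.56 to 1.81 log2 and an adjusted p of up to 1.79e-08.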

How the results depend on the processing

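Counts of members called, each out of 30, are given for the settings that moved them by more than 1.5 times. For the mean of the pools (28 calls) library size scaling gave 18 and the library set term 15. The set term gave 13 in M90 minus vehicle (25), 18 in M10 minus vehicle (29), 3 in H90 minus vehicle (8), 6 in H90 minus H10 (10) and 3 in M10 minus H10 (14). H90 minus vehicle had 15 calls with no filter, 14 in a fit of its groups alone and 13 without M90 a and M10 c. M90 minus M10 (14) had 25 with no filter, 22 with limma-voom, 8 in a fit of its groups alone and within set 2, and 23 without M90 a and M10 c. M90 a and M10 c were picked by the levels of these same genes. H90 minus H10 had 20 with no filter, 18 in a fit of its groups alone and 16 without M90 a and M10 c. M10 minus H10 had 9 with library size scaling. The interaction (1) had 2 with library size scaling, with DESeq2, with the replicate block and in a fit of its groups alone, 10 with no filter, and 6 with limma-voom, with non-robust shrinkage and without M90 a and M10 c.

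With single libraries left out, counts ran from 19 to 28 for the mean of the pools, 22 to 27 for M90, 26 to 29 for M10, 5 to 12 for H90 and 16 to 25 for H10 (each minus vehicle), 9 to 16 for M90 minus M10, 8 to 13 for H90 minus H10, 14 to 25 for M90 minus H90, 9 to 17 for M10 minus H10 and 1 to 8 for the interaction. The low of 5 for H90 came without H90 c, the low of 9 for M90 minus M10 without M90 b, and the low of 9 for M10 minus H10 without M10 a, M10 b or H10 b. The cause of these shifts was not tested.

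Library size scaling moved the median of all genes to -0.16 log2 on the mean of the pools and to -0.29 in M10, the share of calls that were higher, of all genes, from 47.7% to 30.8%, and reversed Pfkl (-0.14), Mxi1 (-0.070) and Kdm3a (-0.21) in M10 minus vehicle.

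The labels do not give the replicate letters as pairs, and the residuals did not show pairing of more than 0.1 in correlation: residual correlations were -0.0373 to 0.0793 within a letter and -0.0601 to 0.0356 between letters, and the best match of 10 of the 15 libraries bore its own letter, a hint of shared letters from the data and not from the design. As a replicate block the letters moved the interaction's count alone by more than 1.5 times, to 2, and ended 5 calls of members: Gapdh and Ldha on the mean of the pools (adjusted p = 0.0525 and 0.0618), Egln3 in M90 (0.0556), Pkm in H10 (0.0503) and Pkm in M90 minus M10 (0.0698, all edgeR). Depth was lowest in H90 c, at 11245807 counts.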
